A study of Caenorhabditis elegans with 12 samples.

Results

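Dissected germlines of *lin-54(n3423)* and wild-type *C. elegans* hermaphrodites are compared here, on 3 arrays of each genotype. These 6 arrays were taken by their tissue label from the 12 of the series, whose other 6 hold embryos. The wild-type animals were of the N2 strain and the mutants, in the N2 background, carried n3423, a deletion and null allele, and came from a balanced strain, since homozygotes are sterile. Both genotypes were grown at 20 °C, gonad arms were excised 24 hours after the L4 stage, and the part from the mitotic tip through late pachytene of meiosis was kept, which leaves out later oocytes. The RNA of both genotypes was linearly amplified once before labeling. A dissected arm also carries somatic cells of the gonad and can carry other tissue, and fewer cells of a type cannot be told apart from less RNA per cell.

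LIN-54 is a DNA-binding subunit of DRM, a complex that also holds the E2F and DP proteins EFL-1 and DPL-1, the pRB-like protein LIN-35, and LIN-9, LIN-37, LIN-52 and LIN-53. DRM and its relatives in flies and mammals are known mostly as repressors of cell cycle and developmental genes, and in worms as regulators of germline genes. In the hermaphrodite germline both X chromosomes are kept largely silent through mitosis and pachytene, and germ cells then turn to making oocytes, with their RNA-binding proteins, eggshell components and stored histones. The comparison asks which of these programs change when LIN-54 is absent.

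The arrays numbered 1 differed from those numbered 2 and 3 in both genotypes. Across probe sets they correlated at 0.91 to 0.935 with the other arrays, whereas arrays numbered 2 and 3 correlated with each other at 0.972 to 0.988, and the pair numbered 1 at 0.975. Mutant and wild-type arrays were therefore compared within each number. Between 5954 and 8209 of 21541 probe sets were called present on an array, and 6573 of 17675 genes were detected, meaning present on at least 2 of the 3 arrays of a genotype. The 9 genes used to check the tissue (*glh-1*, *pgl-1*, *gld-1*, *him-3*, *htp-3*, *syp-1*, *mex-5*, *oma-1* and *rme-2*) were all present on the 4 arrays numbered 2 and 3, with 6 present on wild-type array 1 and 8 on mutant array 1.

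Markers of other tissues were also present and differed between arrays. Of 32 intestinal genes, 21 to 25 were present on wild-type arrays and 11 to 22 on mutant arrays, and the log2 of their summed signal spanned 14.01 to 15.56 in wild-type and 12.66 to 15.52 in the mutant. Within numbers, the median detected intestinal gene was at −0.72 (mutant minus wild-type, log2) in number 1, 0.94 in number 2 and −2.62 in number 3. Vitellogenins and gut proteases made up this signal, whereas of the intestinal transcription factor genes *elt-7* was absent on all 6 arrays, and *elt-2* was absent on 1 probe set and present on the other at log2 levels of 4.94 to 5.35, alike in both genotypes. Muscle and epidermal markers followed the same order of numbers (median differences of −0.33, 0.77 and −0.89 for muscle, and −0.13, 1.098 and −1.91 for epidermis). Neuronal markers had medians of −0.10, 0.00 and −0.15, and 7 of the 27 were detected. The part of these tissues in the results was not tested.

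**Figure D1:**
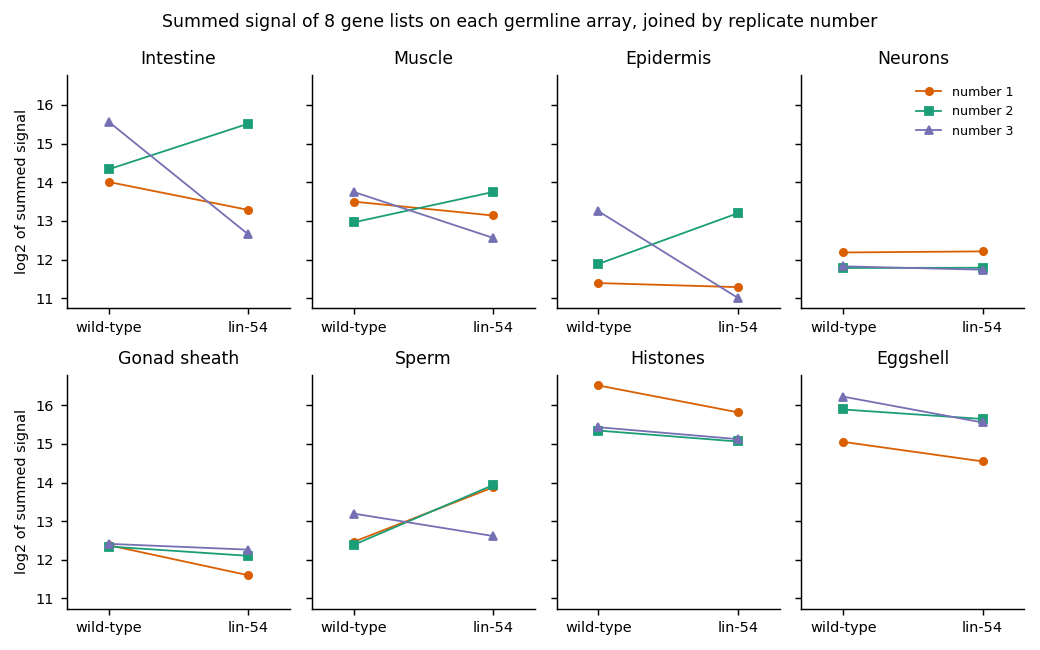
Log2 of the summed signal (y axis) of 8 gene lists on each wild-type and *lin-54* germline array, with a line joining the 2 arrays of a replicate number. Intestinal signal crosses between numbers, from 14.34 to 15.52 in number 2 but from 15.56 to 12.66 in number 3, while histone and eggshell signal is lower in the mutant in each number.

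The 1 probe set of *lin-54* itself gave log2 values of 9.68, 11.01 and 11.02 in wild-type replicates 1 to 3, and of 8.88, 8.14 and 8.18 in the mutant. It was present on 3 of 3 wild-type and on 0 of 3 mutant arrays, and the genotypes did not overlap. The mean fall was 4.51-fold (log2 change −2.17, standard error 0.47, adjusted p = 0.466). It is a lower bound only in that the absent mutant signal may lie lower still. The fall was smallest in number 1, where the wild-type level was also lowest. Where this probe set lies relative to the deletion was not examined. The next gene on chromosome IV, *JC8.4*, was lower too, at 9.23, 9.19 and 9.16 in wild-type and 8.68, 8.35 and 8.45 in the mutant (log2 change −0.70, standard error 0.10, adjusted p = 0.390). On the other side *rpl-12* changed by 0.32 and was not called, and among the 12 other genes measured within 10 genes of *lin-54*, *JC8.4* alone was called.

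The other DRM subunit genes did not pass the test in germlines. Their 14 probe sets changed by between −0.18 (*lin-53*) and 0.42 (*lin-35*). *lin-52* was higher by 1.13 and by 1.44 on its probe sets in number 1, but within 0.26 of the wild-type in numbers 2 and 3. *efl-1*, which encodes the E2F subunit, changed by −0.13 and 0.11, with standard errors of 0.10 and 0.18.

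Fewer genes were called higher than lower in the mutant. A gene was called when limma, with the replicate number as a block, gave 1 of its probe sets an unadjusted p-value not above 0.01 and a fold change of 1.5 or more. By this rule 64 genes were called up-regulated (0.362% of the 17675 genes) and 201 were called down-regulated (1.14%), on 1.28% of the probe sets. Among detected genes 61 were up (0.928%) and 192 down (2.92%). These are the thresholds of the study's methods, and they do not correct for the number of probe sets. A p-value not above 0.01 was found for 424 probe sets, where 1% of all is 215. No probe set reached an adjusted p-value of 0.05, the lowest being 0.117, while 658 probe sets were higher and 1056 lower at an unadjusted 0.05. Counted by direction alone, 3959 of all probe sets (18.4%) were higher and 2833 (13.2%) lower in all 3 numbers. Among detected genes more were lower, as among the calls, with 1009 (15.4%) higher and 1272 (19.4%) lower in all 3 numbers. Without the block, 15 genes were called up and 74 down. With the arrays numbered 1 as a batch instead, 75 were called up and 247 down, and 12 probe sets (0.0557%) of 11 genes reached an adjusted 0.05 (3 higher and 9 lower). The called genes and groups below are thus candidates that moved alike in each number.

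**Figure D2:**
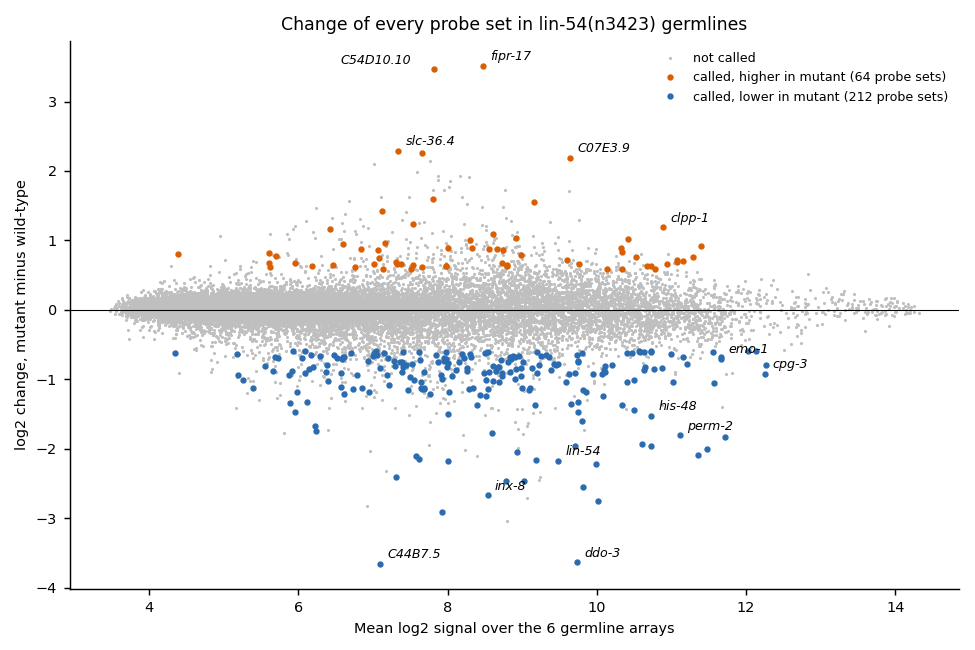
Log2 change (mutant minus wild-type, y axis) of every probe set against its mean log2 signal on the 6 germline arrays (x axis), with called probe sets in color. The 212 lower probe sets spread over all levels, and the highest of the 64 higher ones are *fipr-17* (3.52) and C54D10.10 (3.46).

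Genes that rose 4-fold or more and were present on all mutant arrays were *fipr-17*, C54D10.10, *slc-36.4* and C07E3.9. *fipr-17*, named for its likeness to peptides induced by fungal infection, had log2 values of 8.002, 6.48 and 5.68 in wild-type and of 11.53, 9.58 and 9.60 in mutant germlines. Every mutant array lay above every wild-type array (log2 change 3.52, standard error 0.18, adjusted p = 0.117), although its probe set may also detect related genes. C54D10.10 had values of 6.21, 6.06 and 5.997 in wild-type, where it was absent on all arrays, and of 10.13, 9.31 and 9.21 in the mutant, where it was present on all. It was at least 11.02-fold higher (adjusted p = 0.117). *slc-36.4*, an amino acid transporter gene of the SLC36 family listed in the files as H32K16.1, rose from 6.63, 5.99 and 5.96 to 9.17, 8.0002 and 8.30 (log2 change 2.29, standard error 0.13, adjusted p = 0.117). C07E3.9 rose from 9.50, 7.79 and 8.34 to 11.24, 10.48 and 10.48 (log2 change 2.19, standard error 0.20, adjusted p = 0.267). In the fit with arrays numbered 1 as a batch, *fipr-17*, C54D10.10 and *slc-36.4* had adjusted p-values of 0.0219, 0.0170 and 0.0202.

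Below these, increases were mostly near 2-fold and fell on genes of many kinds. *clpp-1*, which encodes the mitochondrial protease ClpP, was high in wild-type already (10.93, 9.97 and 9.99) and reached 12.41, 10.94 and 11.10 in the mutant (log2 change 1.19, standard error 0.13, adjusted p = 0.327). *cdr-4*, a gene of the cadmium-responsive family, rose by 1.59, and *puf-12*, of the PUF family of RNA-binding proteins, by 1.55. *puf-12* spread more between replicates than it differed between genotypes, with 6.96, 9.68 and 8.50 in wild-type and 8.19, 10.67 and 10.92 in the mutant, but it was higher in each number. *sup-1* rose by 1.23, the G protein subunit gene *gpa-1* by 1.17, and *wht-3*, an ABC transporter gene absent on all wild-type arrays, at least 1.96-fold. Y66D12A.24 rose by 1.42, T28H10.1 by 1.04 and ZK512.2 by 1.01. Other called genes, picked after their values were seen, were the mismatch repair gene *pms-2* (log2 change 1.08), the DNA demethylase homolog *nmad-1* (1.02), the chromodomain gene *cec-5* (0.90), the spindle checkpoint gene *san-1* (0.89) and the Ku homolog *cku-80* (0.64). They were not tested as a group. Among the detected genes of DNA damage and apoptosis (21), DNA replication (34) and pairing and recombination (25) none was called up. Over all detected genes 0.928% were, so lists of this size cannot decide, and *pms-2* and *cku-80* were not on them. Of the 64 genes, 15 rose 2-fold or more and 5 rose 4-fold or more. One of the latter, F57A10.2, was present on 1 mutant array and on no wild-type array, and its change was thus measured mostly near background.

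The largest decreases were those of C44B7.5 and *ddo-3*. C44B7.5 fell from 8.42, 8.33 and 10.03 to 5.04, 5.55 and 5.21 (log2 change −3.66, standard error 0.42, adjusted p = 0.336). *ddo-3*, listed in the files as F20H11.5, was among the stronger signals in wild-type (11.08, 11.46 and 12.13) and dropped to 7.93, 8.21 and 7.63, being present on 1 of 3 mutant arrays (log2 change −3.63, standard error 0.30, adjusted p = 0.243, and 0.0417 with arrays numbered 1 as a batch). In neither gene did the genotypes overlap. The 15 decreases chosen by size also held Y32F6A.5 (−2.92), *sri-40* (−2.40), B0513.4 (−2.23) and, on X, C15H9.9 (−2.18) and C17G1.2 (−2.15). Of the 201 down-regulated genes, 74 fell 2-fold or more and 17 fell 4-fold or more, and 31 were absent on all mutant arrays. In 114 of them every mutant array lay below every wild-type array; over all probe sets, the genotypes did not overlap in 7.16%.

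Several other large decreases were of enzyme genes, which are described together here without a list or a test behind the grouping. *ctsa-1.1*, a cathepsin A-like carboxypeptidase gene, fell from 10.66, 11.44 and 12.06 to 8.33, 9.40 and 8.17 (log2 change −2.75, standard error 0.39, adjusted p = 0.390). *try-14*, a trypsin-like protease gene on X, fell from 10.97, 10.90 and 11.40 to 8.72, 8.81 and 8.09 (log2 change −2.55, adjusted p = 0.291). The chitinase gene *cht-3* changed by −2.05, the gene WBGene00009897, listed as a peroxidase, by −2.47, and the lysozyme gene *lys-4* by −2.0999. *lys-4* was at 9.34, 7.62 and 8.94 in wild-type and absent on all mutant arrays, so that it fell at least 4.29-fold. It was the 1 called gene of the 32 intestinal markers. Like every gene called down, it was lower in number 2 as well (7.62 against 6.59), where most of these markers were higher in the mutant. *cpr-1*, for a cathepsin B-like protease, was also lower there (8.59, 8.60 and 10.14 against 7.61, 7.60 and 6.70) and was not called.

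The largest decreases held a pair of genes known from the somatic sheath that wraps the germline, *inx-8* and *tbh-1*. *tbh-1* was not on the list of 12 sheath markers and was placed here after its value was seen. *inx-8* encodes an innexin with which sheath cells couple to germ cells, and fell from 10.01, 9.59 and 10.02 to 7.56, 7.09 and 6.97. The differences within numbers were −2.45, −2.50 and −3.06, and the genotypes did not overlap (log2 change −2.67, standard error 0.15, adjusted p = 0.117, and 0.0202 with arrays numbered 1 as a batch). *tbh-1* encodes the enzyme that makes octopamine, in the RIC neurons and in the gonadal sheath. It fell from 8.83, 10.47 and 10.75 to 7.48, 7.64 and 7.54 (log2 change −2.46, standard error 0.39, adjusted p = 0.390), with the lowest wild-type value in number 1. The listed sheath markers were mostly not measurable: of 12, 4 were detected, and *inx-8* alone was called. The defining genes *lim-7* and *ceh-18* were absent on all arrays, as was *inx-9*, the partner of *inx-8*, on all but 1. Of the detected ones, the engulfment receptor gene *ced-1* had differences of −1.004, 0.01 and −0.04 and *gon-2* of 0.26, 0.10 and 0.25. The log2 of the summed sheath signal was 12.35 to 12.41 in wild-type and 11.60 to 12.26 in the mutant. The innexins of the germ cells themselves, *inx-14*, *inx-21* and *inx-22*, were all detected and not called, with changes of −0.21 to 0.47. Fewer sheath cells on the dissected arms and less RNA in them cannot be told apart here, and the cells that gave the *tbh-1* signal were not examined.

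**Figure D3:**
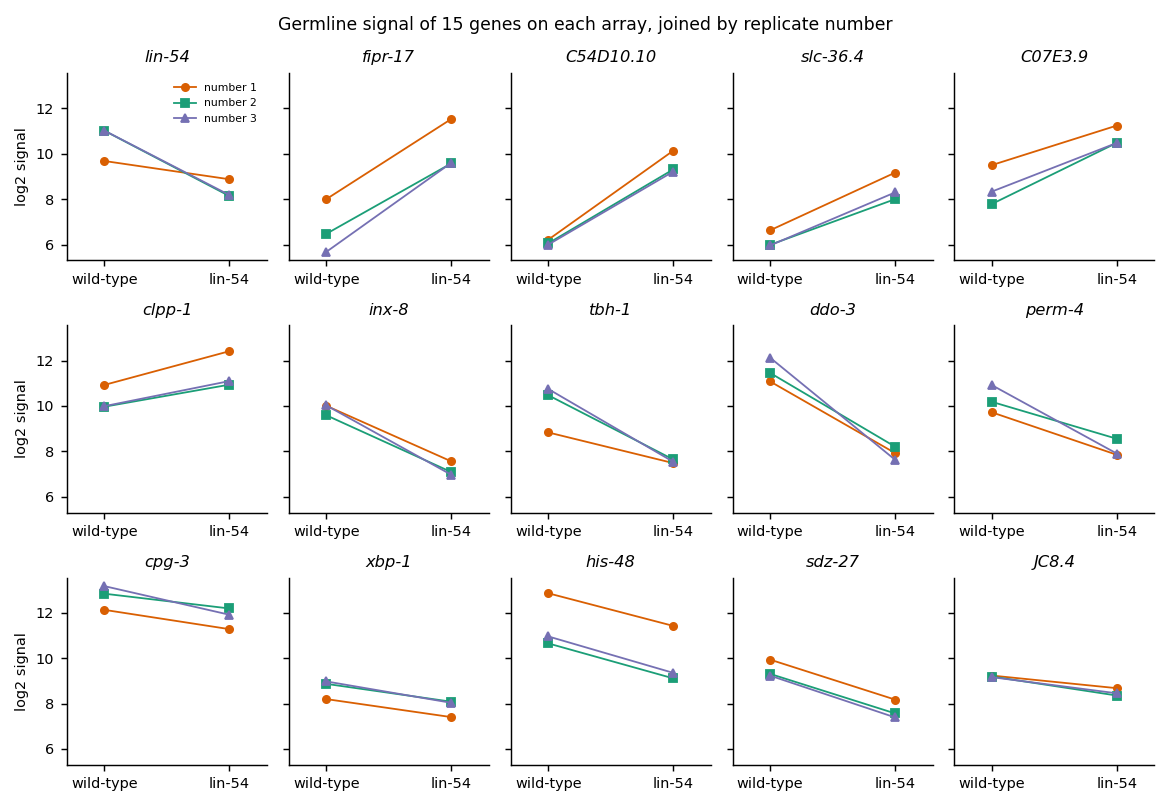
Log2 signal (y axis) of 15 genes on each wild-type and *lin-54* germline array, with a line joining the 2 arrays of a replicate number; for genes with several called probe sets the one with the largest change is shown. The lines of a gene run in 1 direction in each number, whereas the levels in number 1 lie apart for *his-48*, *fipr-17* and *tbh-1*.

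Of 20 genes of the eggshell, egg activation and yolk uptake on the array, 18 were detected, 4 were called down and none up (2.92% of all detected genes were called down). The detected ones had a median log2 change of −0.23, beside −0.003 over all detected genes, with medians of −0.41, −0.12 and −0.39 in numbers 1 to 3. *perm-4* and *perm-2*, which lie side by side on chromosome IV and are needed for the eggshell's permeability barrier, changed most. *perm-4* fell from 9.72, 10.18 and 10.91 to 7.85, 8.55 and 7.90 (log2 change −2.17, standard error 0.30, adjusted p = 0.390), and its other called probe sets gave −2.001 and −1.84. *perm-2* fell from 12.15, 11.64 and 12.26 to 10.64, 10.57 and 9.43 (log2 change −1.80, standard error 0.36, adjusted p = 0.444).

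The other called eggshell genes changed less. The chondroitin proteoglycan gene *cpg-3* fell from 12.13, 12.84 and 13.17 to 11.28, 12.19 and 11.91 (log2 change −0.92, standard error 0.15, adjusted p = 0.390), and *egg-2*, for an oocyte surface protein needed for fertilization, from 10.11, 12.71 and 12.76 to 9.61, 12.16 and 11.97 (−0.61, standard error 0.10, adjusted p = 0.390). Their close relatives pointed the same way without being called, with −0.48 for *cpg-2* and −0.38 for *egg-1*, and the yolk receptor gene *rme-2* had −0.26. *cbd-1* (0.02), the chitin synthase gene *chs-1* (0.10), *perm-3* (0.18) and *cpg-1* (0.22) did not share this. Without the replicate block, 2 of the 4 genes were called.

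RNA-binding proteins of oocytes and early embryos had a similar median but no such large changes. Of 25 on the array, 24 were detected, and 1 of them, *puf-6*, was called (log2 change −0.59, adjusted p = 0.493). That call held with arrays numbered 1 as a batch and with centring on the array median, and was lost in the other 9 alternatives run. 21 of the detected genes had values below 0, with a median of −0.27, and 14 were lower in each of the 3 numbers (19.4% of all detected genes were). The translational regulators *mex-3* (−0.62), *nos-2* (−0.54), *mex-6* (−0.54) and *puf-5* (−0.51) were lowest among those not called, and *oma-1* (−0.16) and *oma-2* (−0.10) were near 0. Other genes known for roles in oocytes or the first divisions were called down and were picked after their values were seen: *meg-4*, for a P granule protein (−0.74 and −0.70 on its probe sets), *gpr-1*, a regulator of spindle positioning (−0.61), *memi-2*, of the meiosis-to-mitosis transition (−0.67), *mom-1*, the Porcupine homolog of Wnt secretion (at least 1.53-fold lower), and *sdz-27*. *sdz-27* fell from 9.94, 9.31 and 9.23 to 8.18, 7.57 and 7.39, and its differences within numbers were nearly equal (log2 change −1.78, standard error 0.08, adjusted p = 0.117, and 0.0170 with arrays numbered 1 as a batch).

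Histone genes formed the group with the most calls. Of 48 core and linker histone genes on the array, 40 were detected and 15 were called down, with none up. Their median was −0.42, with −0.67, −0.32 and −0.33 in numbers 1 to 3, and 26 were lower in each number. Over all detected genes, 2.92% were called down and 19.4% were lower in each number. The 15 were all genes of the replication-dependent type, which are expressed in S phase and occur in many near-identical copies. They comprised 8 of 10 genes for H4, 4 of 8 for H2A and 3 of 8 for H2B, while none of 8 for H3 was called. The medians of the detected genes were −0.90 for H4, −0.64 for H2A, −0.45 for H2B and −0.15 for H3. The H3 genes were all below 0, the lowest being *his-59* at −0.51. The H3 variant genes that were detected, *his-72* and *his-74*, had values of 0.15 and 0.11, and the 4 detected linker histone genes ran from −0.34 (*hil-4*, lower in each number) to 0.38 (*his-24*) with a median of 0.11 and no calls.

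Histone levels themselves differed by replicate number more than by genotype. *his-48*, an H2B gene, had values of 12.86, 10.65 and 10.96 in wild-type and of 11.42, 9.11 and 9.35 in the mutant (log2 change −1.53, standard error 0.09, adjusted p = 0.117). The differences within numbers, −1.44, −1.54 and −1.61, were even although the level was highest in number 1 in both genotypes. *his-62*, another H2B gene, gave −1.33 (standard error 0.08, adjusted p = 0.136), and the H2A genes *his-47* and *his-61* −1.03 and −1.01. *his-67*, an H4 gene, fell from 10.54, 7.80 and 7.91 to 8.45, 6.55 and 6.75 (log2 change −1.50, adjusted p = 0.390). It was the 1 histone gene called on a probe set that the array design does not mark as shared. The other 14 were called on shared probe sets, so copies of a class cannot be counted as independent genes, and without the replicate block none of the 15 was called. *his-48*, *his-62* and *his-47* were also among the genes that reached an adjusted 0.05 when the arrays numbered 1 were a batch.

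Some genes of the secretory pathway and of glycolysis were called down. Their lists were drawn up after the called genes had been seen, so that their counts describe a selection. Of 38 genes for protein entry into the endoplasmic reticulum, folding and export, 35 were detected. Their median was −0.26, and 7 were above 0 (up to 0.46). Of them 9 were called down, none was called up, and 20 were lower in each number. Over all detected genes, 2.92% were called down and 19.4% were lower in each number. *xbp-1*, the transcription factor of the unfolded protein response, fell from 8.20, 8.87 and 8.97 to 7.40, 8.08 and 8.03 (log2 change −0.84, standard error 0.09, adjusted p = 0.280). The called genes also included *trap-2* of the translocon-associated complex (−0.92), *emo-1* for the Sec61 gamma subunit (−0.70), *hsp-3* for a BiP chaperone (at least 1.74-fold lower), the disulfide isomerase gene *pdi-2* (−1.34 on 1 of its probe sets), *calu-2* (−0.69) and *fkb-5* (−0.61). For *hsp-3* the genotypes overlapped, with 6.10, 6.77 and 7.51 in wild-type and 5.43, 6.30 and 6.23 in the mutant. *cnx-1* for calnexin (0.06), *ero-1* (−0.01) and the stress sensor gene *ire-1* (0.20) were near or above 0, and *hsp-4*, the stress-induced BiP gene, had differences of 0.64, −0.47 and −0.79.

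The other list covered glycolysis and the malate shuttle, and 11 of its 26 entries matched no gene name on the array. Of 16 genes on the array, 13 were detected. These 13 had values below 0, and 5 of the list were called down (2.92% of all detected genes were called down). *aldo-2* for aldolase fell from 9.61, 10.89 and 11.08 to 8.29, 10.46 and 10.21 (log2 change −0.87, adjusted p = 0.476), *gpd-4* for glyceraldehyde phosphate dehydrogenase by 0.64 and *pgk-1* for phosphoglycerate kinase by 0.61 on the log2 scale. The transaminase gene *got-2.2* (−1.03) and *mdh-1* for malate dehydrogenase on chromosome V (−0.60) completed them. The neighboring S-adenosylmethionine synthetase genes *sams-3* and *sams-4* were lower by 0.67 and 0.68, although their probe sets are shared. The intestine, too, expresses secretory and metabolic genes, and the intestinal markers in numbers 1 and 3 were lower in the mutant. In number 2, where those markers were higher by a median of 0.94, the secretory genes had a median of −0.27. The glycolysis and shuttle genes had one of −0.38. Both lists were drawn up around called genes, which were lower in each number, so these medians were partly given by the choice. The part of the intestine in them was not tested.

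**Figure D4:**
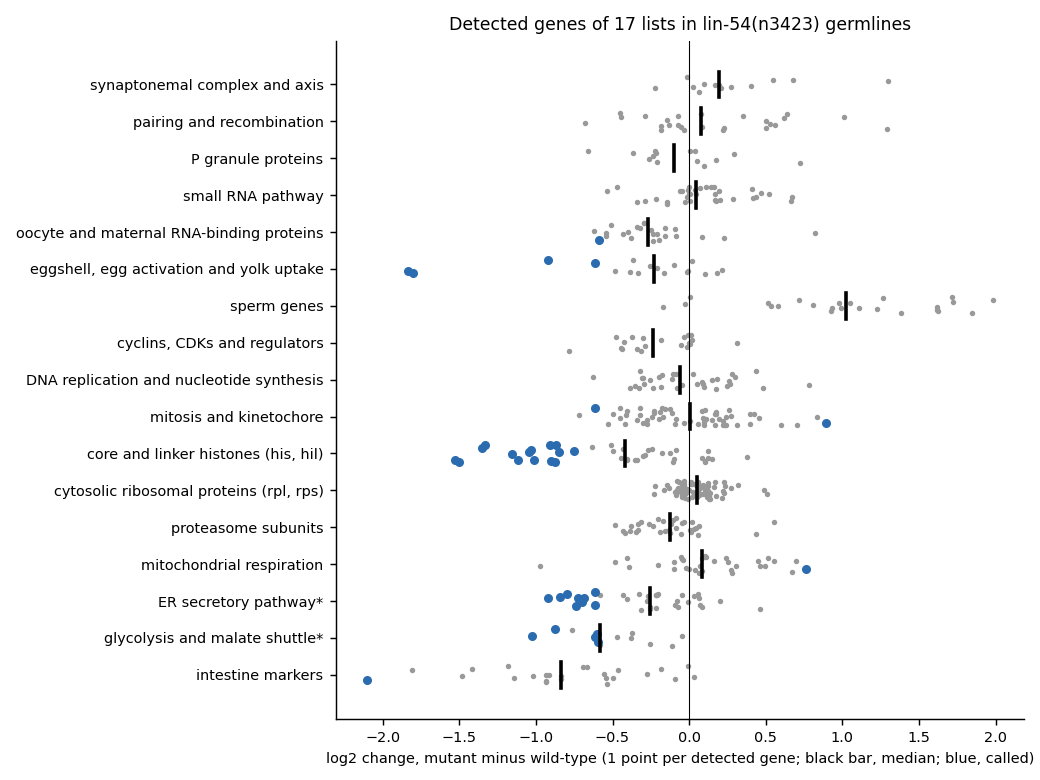
Log2 change (mutant minus wild-type, x axis) of the detected genes of 17 lists, 1 point per gene, with the median of each list as a black bar and called genes in blue; an asterisk marks lists drawn up after the called genes had been seen. Histones (15 called) and eggshell genes (4 called) reach below −1, ribosomal protein genes stay within −0.23 to 0.51, and sperm genes lie to the right with no gene called.

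Decreases were spread unevenly over the chromosomes. The X chromosome held 51 of the 201 down-regulated genes (25.37%) and 1 of the 64 up-regulated genes. It held 14.09% of all genes and 9.34% of the detected genes. Of its 614 detected genes, 7.98% were called down and 0.163% up, whereas on the autosomes the share called down ran from 1.46% (III) to 3.61% (IV). The up-regulated gene was *igcm-3*. The median change of detected genes was −0.14 on X and 0.01 on the autosomes, and 71.01% of detected X-linked genes were below 0, beside 48.3% of autosomal ones.

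The shift of X was not seen in each number. Detected X-linked genes had medians of −0.20 in number 1 and −0.25 in number 3, but of −0.01 in number 2, where the autosomal median was −0.04 and intestinal markers were higher in the mutant. In number 2, 52.8% of detected X-linked genes and 56.5% of autosomal ones were below 0. All genes called down were lower in each number, on X and on the autosomes alike, which the calling rule favors. Among the 150 on autosomes the genotypes did not overlap in 77, and over all probe sets in 7.16%. The 51 on X had medians of −0.93, −0.62 and −1.03 in numbers 1 to 3, and in 37 of them the genotypes did not overlap. Besides *try-14* and *tbh-1* they included *tag-320*, which fell from 9.95, 10.80 and 10.70 to 8.29, 9.62 and 9.12 (log2 change −1.48, standard error 0.13, adjusted p = 0.249), and T04G9.7, which fell from 12.74, 12.18 and 12.31 to 10.62, 10.49 and 9.83 (log2 change −2.098, standard error 0.17, adjusted p = 0.243). The lipid synthesis genes *acl-1* (−0.67) and *acl-4* (−0.94), the acyl-CoA dehydrogenase gene *acdh-10* (−0.80) and the MAP kinase kinase gene *mek-1* (−0.89) were X-linked as well, as were the secretory genes *trap-2*, *hsp-3*, *pdi-2* and *hke-4.2*.

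**Figure D5:**
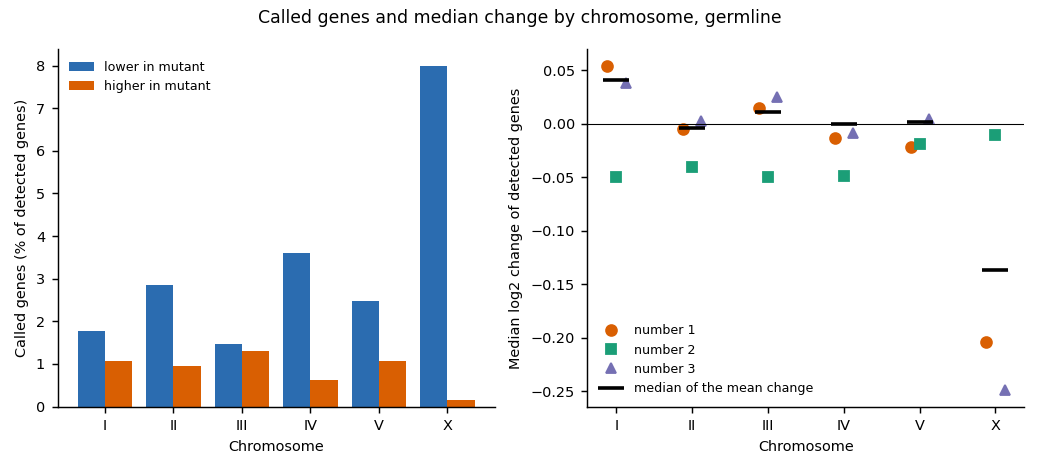
Left, called genes as a percentage of detected genes on each chromosome (bars from 0); right, median log2 change of detected genes in each replicate number, with the median of the mean change as a black dash. X has the highest share of lower genes (7.98%) and its medians in numbers 1 and 3 (−0.20 and −0.25) lie below all others, while number 2 lies at −0.01.

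Most programs of the proliferating and meiotic germline gave no calls. None of 13 detected genes of the synaptonemal complex and chromosome axis, 25 of pairing and recombination, 14 of P granules, 35 of small RNA pathways, 11 of the stem cell and GLP-1 pathway, 13 of sex determination, 34 of DNA replication, 20 cyclins, CDKs and their regulators, or 9 synMuvB genes outside DRM was called in either direction. Over all detected genes 0.928% were called up and 2.92% down, so lists of this size can lack calls at that share. The absence of calls thus does not set these programs apart from other genes. *meg-4*, the called P granule gene named above, was not on the P granule list. The medians of these lists lay between −0.24 (cyclins and CDKs) and 0.19 (synaptonemal complex and axis). *syp-1*, which encodes a central element of the synaptonemal complex, was highest at 1.297 (7.89, 10.15 and 9.32 against 8.67, 11.08 and 11.50, standard error 0.31, adjusted p = 0.510) and missed the p-value threshold. *cyb-3*, a B-type cyclin gene, had even differences of −0.40, −0.41 and −0.51 and was below the fold threshold. Among 59 detected genes of mitosis and the kinetochore, *san-1* rose and *knl-3* fell (−0.62, adjusted p = 0.390), and the median was 0.01. The standard errors of single genes, such as 0.31 for *syp-1*, leave room for changes past 1.5-fold that were not called.

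Housekeeping families moved little. The 76 detected ribosomal protein genes ran from −0.23 to 0.51 with a median of 0.05 and no calls, and the 33 proteasome genes had a median of −0.13 and no calls. Of the proteasome genes 24 were below 0, 14 were lower in each number and 1 was higher in each. Over all detected genes, 19.4% were lower and 15.4% higher in each number, and 0.928% were called up and 2.92% down. Of 33 detected respiratory genes *ucr-2.3* was called up (0.77), and of 33 translation factor genes *eif-3.I* was called up (0.59) and *eft-2*, for elongation factor EF2, down (−0.79, from 11.69, 13.22 and 13.09 to 10.48, 12.42 and 12.72). Small heat shock genes varied by replicate, with differences of 3.36, 1.63 and −1.25 for *hsp-16.41*, and were not called.

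Sperm genes differed strongly between single arrays. Of 48 on the array, 24 were detected, most of them for the major sperm proteins, with a median of 1.02 that came from differences of 1.87, 2.21 and −0.84 in numbers 1 to 3. The log2 of their summed signal was 13.87 and 13.93 on mutant arrays 1 and 2 and 13.20 on wild-type array 3, but 12.39 to 12.62 on the other 3 arrays. None was called. *msp-36*, the highest in change at 1.98, had differences of 2.89, 3.68 and −0.62.

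Of 84 gene families defined by symbol, with at least 8 genes on the array and 5 detected, 57 had no called gene, and 8 had 2 or more called down. The *his* family led with 15 of 40 (37.5%, beside 1.14% of all genes). The families with the lowest medians, *lbp* lipid-binding proteins (−0.73), *spp* saposin-like proteins (−0.72), *ttr* transthyretin-related proteins (−0.71) and *col* collagens (−0.60), had 0, 1, 1 and 0 called genes. Their differences varied by number as the intestinal and epidermal markers did, for example −0.38, 1.44 and −2.68 for *col*. The others with 2 called down were *ubc* (2 of 20 ubiquitin-conjugating enzyme genes, *ubc-12* at −0.68 and *ubc-19* at least 1.75-fold lower), *acl* (2 of 14 acyltransferase genes, *acl-1* and *acl-4*), *acdh* (2 of 13 acyl-CoA dehydrogenase genes, *acdh-2* at −0.82 and *acdh-10*), *fbxc* (2 of 42 F-box genes, *fbxc-42* at −0.91 and *fbxc-50* at −1.14), *gst* (2 of 41 glutathione transferase genes, *gst-7* at −1.18 and *gst-44*, absent on all arrays) and *fbxa* and *tag*. In *fbxa* (2 of 160, 1.25%) and *tag* (2 of 144, 1.39%) the share was near that of all genes, and 1 gene of each was called up (*fbxa-107* at 0.67, *tag-242* at 0.92). *ubc-19* was present on 1 wild-type and 0 mutant arrays, so its change was measured near background. No family had 2 or more genes called up.

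Embryos of the series carried a different allele, the partial loss-of-function *lin-54(n2990)*, and were grown at 25 °C, so the values stand side by side without a test of their difference. With the same fit, 858 genes were called up (4.85%) and 677 down (3.83%) in embryos. Of the 64 genes up in germlines, 15 were also up in embryos and 0 down (23.4% and 0% of the germline list, and 1.75% and 0% of the embryo lists). *fipr-17* (3.52 in germlines and 3.48 in embryos), C54D10.10 (3.46 and 2.66), C07E3.9 (2.19 and 1.70) and *clpp-1* (1.19 and 1.65) were among them, while *sup-1* changed by 1.23 and −0.58. Of the 201 genes down in germlines, 34 were up in embryos (16.9% of the germline list and 3.96% of the embryo list) and 7 were down (3.48% and 1.03%). *sdz-27* (−1.78 in germlines and 0.77 in embryos), *cpg-3* (−0.92 and 1.15), *fbxc-50* (−1.14 and 1.01) and *JC8.4* (−0.70 and 0.75) went opposite ways. Of the largest germline decreases, *inx-8* (−0.03 in embryos), *ddo-3* (−0.06) and *perm-4* (0.01) were absent on all embryo arrays. Their embryo values near 0 were thus measured at background. *ctsa-1.1*, present on all embryo arrays, was called down there as well (−1.94).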

How the data were processed

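Affymetrix *C. elegans* arrays were used, 1 per sample. The authors deposited log2 values per probe set, made with RMA (background correction, quantile normalization, summary) in the affy package, separately for germlines and embryos, and tied to genes by WormBase WS190, with a present, marginal or absent call per array. Tool versions are not given in the sources used here. Columns with the authors' fold changes and p-values were not used. Symbols that are sequence names were updated through RefSeq (WBcel235), which named 2989 genes anew. Array signal below the probe set was not analysed, and the number of arrays limits the precision.

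Germline arrays were fitted alone with limma 3.58.1 (R 4.3.3), mutant minus wild-type, with the replicate number as a block, and Benjamini-Hochberg adjusted p-values were taken over all 21541 probe sets; the fit was tested on simulated data. Every adjusted p in the text is limma's. The numbers were taken as pairs since deviations from the genotype means correlated within each (0.834, 0.363 and 0.392), although wild-type array 2 correlated better with mutant array 3 (0.767), and wild-type 3 with mutant 2 (0.719). The labels call replicates biological and give no shared day or batch. A gene was called if 1 or more of its probe sets passed (p at most 0.01, fold at least 1.5), in the direction of their mean change; 3149 genes have several. List values use the probe set with the highest mean signal. "At least" folds set a genotype with no present call at the higher of its own value and the lowest present signal of each array. For *lin-54*, C54D10.10, *lys-4*, *hsp-3*, *wht-3* and *ubc-19* they equal the measured mean fold. They bound the absent signal and do not allow for the standard error. Named are DRM subunits, up to 15 called genes per direction with the largest change, alike in each number and present on 2 or more arrays of the higher genotype, and called genes of lists and families; others were picked after their values were seen and include T04G9.7, *cht-3*, *sdz-27* and *JC8.4*. The genes and lists were chosen with earlier results of these data known. Figures used matplotlib 3.10.9.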

Additional observations from a re-analysis of the deposited data

Results flagged for a closer look

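For 27 of the 89 named called probe sets, the 3 germline numbers all went one way and the 3 embryo numbers all the other way. The germline part of this was given by the calling, since all 64 up-regulated and 201 down-regulated genes moved alike in each number. The share over all probe sets was not counted, so whether 27 is more than that share is not known. Some embryo differences were small, such as 0.06 for *his-46* and 0.07 for *his-31* in number 2. *try-14*, *sri-40* and *gst-44* were absent on all embryo arrays, and C17G1.2 was present on 1, so their embryo values lay near background. The difference between tissues was not tested, and allele and temperature differ with the tissue. *sup-1* was the 1 that was higher in germlines (1.23, embryos −0.58). The 26 lower ones included 7 that were called up in embryos: *cpg-3* (−0.92 in germlines, 1.15 in embryos), *fbxc-50* (−1.14, 1.01), *acdh-2* (−0.82, 0.69), *his-67* (−1.50, 0.66), *egg-2* (−0.61, 0.65), *puf-6* (−0.59, 0.64) and *his-14* (−0.75, 0.64). Embryo values of 0.37 to 0.94 without a call stood beside germline values of −1.18 for *gst-7*, −1.16 for *his-46*, −1.12 for *his-31*, −1.01 for *skr-16*, −0.94 for *gst-44*, −0.91 for *fbxc-42*, −0.87 for *his-50*, −0.85 for *his-68*, −0.64 for *gpd-4*, −0.64 for *fbxa-65*, −0.62 for *knl-3* and, for the targeted gene *lin-54*, −2.17. Embryo values were under 0.30 for *try-14* (−2.55), *sri-40* (−2.40), C17G1.2 (−2.15), *fbxa-13* (−0.90), *calu-2* (−0.69), *ubc-12* (−0.68) and *tag-289* (−0.64).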

How the results depend on the processing

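No named gene turned its direction while called. The counts moved with the fit: without the replicate block 15 genes were up and 74 down (66 of them among the 201), with 0 histone and 2 eggshell genes down; at an adjusted p-value of at most 0.05, 0 genes were up or down, histone and eggshell genes included. Leaving out a replicate number gave 74 to 123 genes up, 114 to 352 down (352 without replicate 2), 8 to 13 histone and 2 to 4 eggshell genes down, and 20.2% to 31.8% of down-regulated and 0% to 4.05% of up-regulated genes on X. Detected probe sets alone gave 38 up, probe sets not shared 129 down with 1 histone gene, a fold of at least 2 gave 15 up, 74 down and 2 eggshell genes, and no fold threshold 113 up. The X-linked share of up-regulated genes was 0% with detected probe sets, with probe sets averaged per gene and at 2-fold. Median centring, a further quantile normalization, array weights, a trended prior and arrays numbered 1 as a batch kept counts within 1.5-fold; the trended prior gave 9 probe sets an adjusted p of at most 0.05. Of 89 named called probe sets, 38 were still called without the block, 54, 65 and 45 without replicates 1, 2 and 3. Low signals, at or under background in a genotype, have changes known only as bounds.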

Other observations

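Called genes were in places neighbors. In the RefSeq gene order 252 of the 265 called genes could be placed, and 16 pairs of them had at most 1 gene between, 14 with both lower in the mutant. Histone clusters gave 6 of these pairs. The others lower together were *perm-4* and *perm-2*, *sams-4* and *sams-3*, *calu-2* and F08B6.1, *dod-6* and T20G5.8, *lin-54* and *JC8.4*, and on X *trap-2* and T04G9.7, F02E8.4 and *aps-2*, and C49F5.3 and C49F5.6. F02E8.4 fell from 7.80, 8.72 and 8.62 to 6.56, 7.46 and 7.47 (log2 change −1.22, standard error 0.08, adjusted p = 0.185). *dod-6* and T20G5.8, and also *gst-44*, were absent on all 6 arrays, so their changes were measured near background. Of 201 down-regulated genes 31 were absent on all mutant arrays, and of 64 up-regulated genes 8 were absent on all wild-type arrays.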
